A study of Mus musculus with 4 samples.

Results

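The genes described here were 35 genes of lymphocytes, cytotoxic effectors and immune checkpoints, chosen by name from the 24527 genes of the read count table, and every one of them had a row there. They were grouped by role into 9 genes of the T cell receptor complex with its coreceptors and kinases, 8 cytotoxic granule and natural killer (NK) genes, 3 B cell antigen receptor genes, 5 checkpoint receptors, 2 checkpoint ligands, 5 costimulatory receptors and 3 regulatory T cell and interleukin 2 (IL-2) receptor genes. B16F10 mouse melanoma cells were compared in 4 settings, a 2D monoculture, a 2D co-culture with NIH/3T3 mouse fibroblasts, a hanging drop spheroid with the same fibroblasts, and a tumor grown from the melanoma cells under the skin of both flanks of 1-year-old female C57BL/6 mice. The labels give a wild-type genotype for all 4 samples. According to the study's methods, the melanoma cells of the cultures were a commercial line carrying a cytoplasmic green fluorescent protein, and live fluorescent cells were sorted from the cultures. The series' design text and the study's methods say that tumor cells were sorted as well, whereas the tumor sample is labelled snap frozen tumor. The methods give n=3 for RNA isolation and do not state whether RNA was pooled. Each setting gave 1 library, so no test across samples was possible, and every interval below is an exact 95% interval that covers the error of counting reads only.

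T and B lymphocytes carry antigen receptors whose signaling chains (CD3, CD79) are specific to each lineage, and the coreceptors CD4 and CD8 mark helper and cytotoxic T cells. Cytotoxic T cells and NK cells kill by releasing perforin and granzymes. Lymphocytes also carry costimulatory receptors (CD28, ICOS, 4-1BB, OX40, GITR) and inhibitory checkpoint receptors (PD-1, CTLA-4, LAG-3, TIM-3, TIGIT), many of them raised after activation. The PD-1 ligands differ in that they can be carried by tumor cells themselves, and interferon gamma released by lymphocytes is a classical inducer of PD-L1. A B16F10 culture holds no lymphocytes, whereas a tumor in a mouse with an intact immune system can hold them.

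Promoter windows running from 250 bases before to 50 bases after an annotated start were taken from RefSeq (GRCm38.p6), which held 32 windows for 26 of the 35 genes. Those of 3 genes are printed because these genes were read in every culture and the comparisons of spheroid and tumor turn on them: Tnfrsf9, which encodes 4-1BB and has an upstream and a downstream start, Havcr2, which encodes TIM-3, and Cd274, which encodes PD-L1. Il2rb and Lag3 had no window. Capitals mark matches to 1 of 5 motifs searched on both strands, which were TTCNNNGAA (interferon gamma activated site), CACGTG (an E-box of the MITF type), TGANTCA (AP-1 site), the kappaB site and the interferon response element. The windows lie on the plus strand at chr4:150919905-150920204 (Tnfrsf9, upstream), chr4:150927749-150928048 (Tnfrsf9, downstream), chr11:46454681-46454980 (Havcr2) and chr19:29367188-29367487 (Cd274).
Tnfrsf9, upstream start: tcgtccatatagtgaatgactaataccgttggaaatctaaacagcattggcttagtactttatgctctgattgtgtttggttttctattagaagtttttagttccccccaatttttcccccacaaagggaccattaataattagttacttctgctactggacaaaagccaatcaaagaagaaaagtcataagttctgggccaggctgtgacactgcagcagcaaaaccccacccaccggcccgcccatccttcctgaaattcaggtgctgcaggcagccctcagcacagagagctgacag
Tnfrsf9, downstream start: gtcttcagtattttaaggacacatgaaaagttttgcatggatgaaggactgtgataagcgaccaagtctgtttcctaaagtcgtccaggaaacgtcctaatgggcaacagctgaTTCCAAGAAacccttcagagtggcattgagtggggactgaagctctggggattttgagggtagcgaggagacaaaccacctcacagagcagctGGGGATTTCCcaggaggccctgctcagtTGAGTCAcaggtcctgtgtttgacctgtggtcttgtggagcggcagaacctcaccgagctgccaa
Havcr2: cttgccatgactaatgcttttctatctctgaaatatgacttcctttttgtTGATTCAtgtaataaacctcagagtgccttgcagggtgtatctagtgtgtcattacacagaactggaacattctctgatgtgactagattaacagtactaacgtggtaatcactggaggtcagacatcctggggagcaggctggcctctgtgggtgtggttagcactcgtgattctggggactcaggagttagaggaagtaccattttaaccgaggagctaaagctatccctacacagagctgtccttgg
Cd274: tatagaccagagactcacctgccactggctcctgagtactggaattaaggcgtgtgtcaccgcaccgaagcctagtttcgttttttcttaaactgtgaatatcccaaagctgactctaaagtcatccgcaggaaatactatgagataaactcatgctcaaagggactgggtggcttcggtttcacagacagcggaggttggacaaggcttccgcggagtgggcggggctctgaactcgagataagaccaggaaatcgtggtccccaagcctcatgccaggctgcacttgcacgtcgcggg
The downstream Tnfrsf9 window held 3 motifs that did not overlap each other. These were an interferon gamma activated site 136 bases before the start (TTCCAAGAA), a kappaB site 43 bases before it (GGGGATTTCC) and an AP-1 site 15 bases before it (TGAGTCA). Among all 32851 windows, 8.30% held the first, 1.63% the second and 7.81% the third. The Havcr2 window held 1 AP-1 site (TGATTCA, 200 bases before the start). The upstream Tnfrsf9 window and the Cd274 window held none of these motifs, and none of the 4 held the interferon response element (3.44% of all windows) or the E-box (7.15%). Over the 32 windows of the listed genes, 7 held the interferon gamma activated site, 4 the AP-1 site, 2 the E-box, 1 the interferon response element and 1 the kappaB site. A match of letters is a description and not evidence of binding.

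Total counts lay between 118896900 and 150028663 reads. Levels are CPM, each count set relative to the library total after scaling by the trimmed mean of M values (TMM). Where no read was counted, up to 3 could have been missed, and these equal 0.0185 to 0.0262 CPM. A fold given as "at least" was taken against these 3 reads. The pan-leukocyte gene Ptprc, which encodes CD45, had 3, 11 and 10 reads in the 2D monoculture, 2D co-culture and spheroid, and 8036 in the tumor. All 5 pan-leukocyte markers had reads in every library, and their summed level was 1.14 to 3.00 CPM in the cultures and 260.4 CPM in the tumor. All 12 myeloid markers had reads in the tumor, where they summed to 2339 CPM against 11.2 to 30.02 CPM in the cultures, and the 9 fibroblast markers summed to 3186 CPM in the tumor, 655.4 in the 2D co-culture and 8.66 to 13.9 in the other two libraries. The 5 skeletal muscle markers summed to 4599 CPM in the tumor and 3.28 to 12.4 in the cultures, the 6 endothelial markers to 244 and 1.23 to 4.55, and the 6 dendritic markers to 13.7 and 7.53 to 15.4. The highest dendritic marker alone made up 15.2 of the 15.4 CPM in the spheroid and 7.47 of the 7.53 CPM in the 2D monoculture. Of the 6 dendritic markers, 5 were over 2-fold higher in the tumor than in the 2D monoculture. The part of other tissues in the tumor levels was not tested. The 8 melanocyte markers, the label of the line, were present in all 4 libraries, at 11420 to 20122 CPM. In such bulk libraries, fewer cells of a type and less RNA per cell cannot be told apart.

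The genes fell into a minority read in melanoma cultures and a majority read almost solely in the tumor. In the tumor every one of the 35 genes had reads, from 21 (Ncr1) to 4539 (Tnfrsf9) with a median of 172, and 33 had at least 30. In the cultures, no read was counted for 13 (2D monoculture), 11 (2D co-culture) and 13 (spheroid), and 8 or 9 per culture had at least 30. Their summed level was 17.7, 11.5, 49.4 and 89.0 CPM in the 2D monoculture, 2D co-culture, spheroid and tumor, and Tnfrsf9 alone made up 31.9 of the 49.4 CPM of the spheroid. The tumor was the highest of the 4 libraries for 31 of the 35 genes (38.7% of all genes that passed the filter), and the spheroid for the other 4, Lck, Lag3, Tnfrsf9 and Il2rb (29.8% of all genes). Of the 35 genes, 21 had under 10 reads over the 3 cultures, against 10.2% of all genes. These 21 passed the filter, which is given below, only through their tumor reads, so the count of 31 cannot be read as support.

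**Figure D1:**
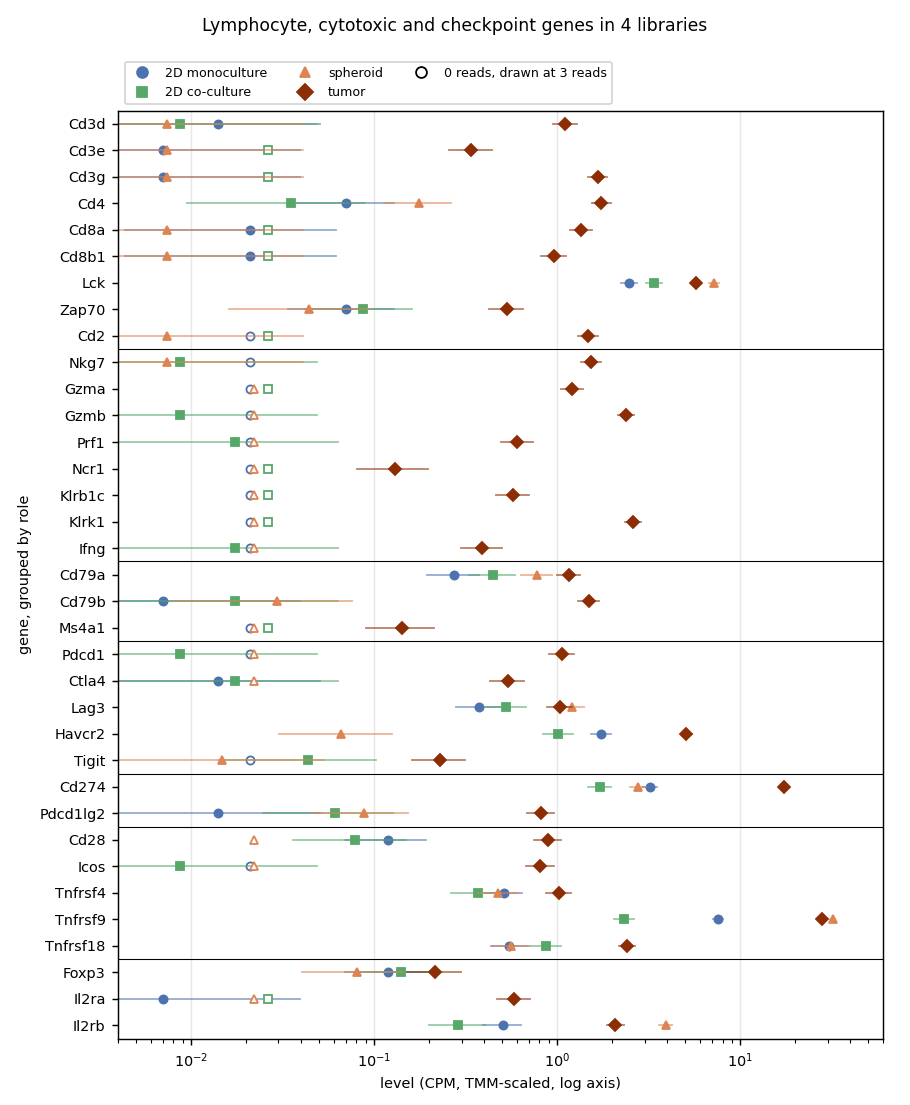
Level (CPM, TMM-scaled, log axis) of the 35 genes in the 4 libraries, grouped by role; bars are exact 95% counting intervals and open symbols mark a count of 0, drawn at the level of 3 reads. Tumor symbols lie to the right of all others for 31 genes, and only a minority of genes, led by Tnfrsf9, Lck, Il2rb and Cd274, reach 1 CPM in a culture.

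For counts over genes, 0.1 CPM was added to both levels before the ratio was taken, over the 17503 genes with at least 10 reads in the 4 libraries together, and a gene was called past 2-fold. All 35 genes passed that filter. Against the 2D monoculture, 33 genes were over 2-fold higher in the tumor and none was lower, where 22.9% of all genes were higher and 15.9% lower, and their median log2 ratio was 2.48 against 0.06 over all genes. This count cannot be read as support on its own, since 21 of the 35 genes had under 10 reads over the 3 cultures and entered only through their tumor reads (10.2% of all genes did), and of all genes of that class 68.9% were higher in the tumor and none lower. With 1 CPM added in place of 0.1, 16 genes were higher, with a median of 0.94, and the share of all genes at that setting is not given here. Of the 13 genes with at least 10 reads in the 2D monoculture, 11 were higher in the tumor (13.6% of all genes with that many reads), and the exceptions were Tnfrsf4 and Foxp3.

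The chains of the T cell receptor complex were at or near 0 in the cultures and clearly read in the tumor. Cd3g had 1, 0 and 1 reads in the 2D monoculture, 2D co-culture and spheroid and 271 in the tumor (1.67 CPM), Cd3d had 2, 1, 1 and 179, and Cd3e had 1, 0, 1 and 55. With so few culture reads the ratio of the tumor to the 2D monoculture could be placed only loosely, at 237.8-fold for Cd3g with an interval of 42.3 to 9427. Cd2, an adhesion receptor of T and NK cells, had 0, 0 and 1 reads in the cultures and 239 in the tumor, at least 69.9-fold higher than in the 2D monoculture. The chains of CD8 behaved alike, with 3, 0, 1 and 219 reads for Cd8a and 3, 0, 1 and 155 for Cd8b1. Smyd1, a muscle gene within 1 kb of Cd8b1 on the opposite strand, had 45, 15, 6 and 5550 reads and was thus also highest in the tumor, and any part of its reads in Cd8b1 was not tested. Zap70, the kinase recruited to the activated receptor, had 10, 10, 6 and 86 reads, a log2 ratio of 2.92 (1.97 to 4.03) between the tumor and the 2D monoculture.

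Cd4, the helper T cell coreceptor, had 10, 4, 24 and 283 reads, which is 0.0702, 0.0349, 0.176 and 1.74 CPM. The tumor exceeded the 2D monoculture by a log2 ratio of 4.63 (3.73 to 5.71). Within the cultures the spheroid was the highest, with a log2 ratio of 1.33 (0.21 to 2.56) to the 2D monoculture. Gpr162, a gene within 1 kb of Cd4 on the same strand, had 2255, 753, 6383 and 1097 reads, so it was in the same order as Cd4 over the cultures and in another order in the tumor. Whether Cd4 reads of the cultures came from Gpr162 transcripts was not tested.

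Lck was the exception in its group, since it had 352 or more reads in every culture. It encodes the kinase that starts T cell receptor signaling and lies at chr4:129548344-129573641 on the minus strand. It had 352, 387, 980 and 929 reads, or 2.47, 3.38, 7.20 and 5.72 CPM, in libraries in which Cd3d, Cd3e, Cd3g and Cd2 had at most 2 reads in any culture. The spheroid and the tumor were both above the 2D libraries, with log2 ratios to the 2D monoculture of 1.54 (1.37 to 1.72) and 1.21 (1.03 to 1.39). The 2D co-culture exceeded the 2D monoculture by 0.45 (0.24 to 0.66) on the log2 scale.

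The 8 cytotoxic granule and NK genes gave the sharpest contrast between cultures and tumor. Together they had 1525 reads in the tumor, whereas the 2D monoculture had none, the 2D co-culture 6 and the spheroid 1. Klrk1, which encodes the activating NK receptor NKG2D, had 421 tumor reads (2.59 CPM) and no read in any culture, at least 123.1-fold higher than in the 2D monoculture. Gzmb, the granzyme that cleaves caspases, had 384 tumor reads (2.37 CPM) against 0, 1 and 0, at least 112.3-fold higher. Nkg7, a granule membrane protein, had 249 against 0, 1 and 1 (at least 72.8-fold), and Gzma had 196 against 0, 0 and 0 (at least 57.3-fold). Prf1, the pore former perforin, had 98 tumor reads against 0, 2 and 0, and was at least 28.7-fold higher.

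The NK receptors Klrb1c, the NK1.1 antigen of C57BL/6 mice, and Ncr1, which encodes NKp46, had 93 and 21 tumor reads and none in the cultures. Ifng, the gene of interferon gamma, had 63 tumor reads against 0, 2 and 0, at least 18.4-fold higher than in the 2D monoculture. Granzymes and killer cell receptors belong to families of related genes, so counts of single members are uncertain where reads could be shared.

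The few culture reads of this group, 6 (2D co-culture) and 1 (spheroid), were set beside genes picked by level from the same libraries. There were 75 genes with at least 5000 tumor reads and under 0.03% of the tumor level in the 2D monoculture, and their median level relative to the tumor was 0.185% (2D co-culture) and 0.123% (spheroid). At these shares the cytotoxic and NK genes would have had 1.99 and 1.58 reads. Their measured shares were 0.558% (0.205 to 1.21%) and 0.0782% (0.00198 to 0.436%). The 75 genes were picked from these same libraries and the counts were 6 and 1 reads, so no conclusion was drawn. The origin of these reads was not tested.

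Among the B cell antigen receptor genes, Cd79b and Ms4a1 were read almost solely in the tumor. Cd79a was also highest in the tumor but had 39 or more reads in every culture. Cd79b, a signaling chain of the B cell receptor, had 1, 2, 4 and 241 reads, and Ms4a1, which encodes the B cell surface protein CD20, had 0, 0, 0 and 23, at least 6.73-fold higher in the tumor than in the 2D monoculture. Cd79a, the partner chain of Cd79b, had 39, 51, 106 and 188 reads (0.274, 0.445, 0.778 and 1.16 CPM). Its log2 ratio to the 2D monoculture was 0.70 (0.07 to 1.34) in the 2D co-culture, 1.51 (0.97 to 2.08) in the spheroid and 2.08 (1.58 to 2.62) in the tumor. Cd79a and Cd79b were thus at unequal levels in the cultures. Cd79a lies within 1 kb of Arhgef1 on the same strand, which had 19701, 15110, 24629 and 8479 reads, and any part of its reads in Cd79a was not tested.

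The 5 checkpoint receptors divided in the same way. Pdcd1, which encodes PD-1, had 0, 1, 0 and 172 reads and was at least 50.3-fold higher in the tumor than in the 2D monoculture. Ctla4 had 2, 2, 0 and 87 reads, a ratio of 38.2-fold with an interval of 10.3 to 320.2. Tigit, a receptor for nectin family proteins, had 0, 5, 2 and 37 reads and was at least 10.8-fold higher in the tumor than in the 2D monoculture.

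Lag3 and Havcr2 were read in the cultures and moved in opposite directions in the spheroid. Lag3, a CD4-like receptor for MHC class II, had 53, 60, 164 and 168 reads (0.372, 0.524, 1.20 and 1.03 CPM). The 2D libraries lay together at the low end and the spheroid and the tumor together at the high end, with log2 ratios to the 2D monoculture of 1.69 (1.24 to 2.17) and 1.48 (1.02 to 1.95). Havcr2, the gene of TIM-3, lies at chr11:46454935-46481255 on the plus strand and had 248, 116, 9 and 822 reads (1.74, 1.01, 0.0661 and 5.06 CPM). The spheroid was 26.3-fold below the 2D monoculture, a log2 ratio of -4.72 (-5.86 to -3.77), whereas the tumor was above it by 1.54 (1.33 to 1.75). The 2D co-culture was below the 2D monoculture by a smaller amount, with a log2 ratio of -0.78 (-1.11 to -0.46).

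The ligands of PD-1 had their highest levels in the tumor. Cd274, the PD-L1 gene at chr19:29367455-29388095 on the plus strand, had 458, 196, 378 and 2799 reads (3.21, 1.71, 2.78 and 17.2 CPM). The tumor was 5.36-fold above the 2D monoculture, a log2 ratio of 2.42 (2.28 to 2.57). The spheroid differed little from the 2D monoculture (log2 ratio -0.21, interval -0.41 to -0.01), and the 2D co-culture was the lowest library at -0.91 (-1.16 to -0.66). Plgrkt, within 1 kb of Cd274 on the opposite strand, had 2444, 3032, 3711 and 5351 reads. Any part of its reads in Cd274 was not tested. Pdcd1lg2, which encodes PD-L2 and lies next to Cd274 at chr19:29410919-29471161, had 2, 7, 12 and 132 reads. The 2D monoculture count of Pdcd1lg2 was too low to place the cultures closely, as the spheroid ratio to it was 6.28-fold with an interval of 1.40 to 57.7.

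Of the costimulatory receptors, those of the CD28 family were read mainly in the tumor and those of the TNF receptor family were read throughout. Cd28 had 17, 9, 0 and 144 reads. The spheroid was at least 5.42-fold below the 2D monoculture for Cd28, and the tumor was above it by a log2 ratio of 2.89 (2.17 to 3.71). Icos had 0, 1, 0 and 131 reads and was at least 38.3-fold higher in the tumor than in the 2D monoculture.

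Tnfrsf9 had more reads than any other gene of the list in the 2D monoculture, the spheroid and the tumor. It encodes 4-1BB (CD137), a receptor that sustains activated T and NK cells, and lies at chr4:150914562-150946102 on the plus strand. Its counts were 1079, 266, 4350 and 4539 reads, or 7.57 (7.13 to 8.04), 2.32 (2.05 to 2.62), 31.9 (31.0 to 32.9) and 28.0 (27.2 to 28.8) CPM. The spheroid and the tumor were close to each other and far above both 2D libraries, at 4.22-fold and 3.69-fold the 2D monoculture, log2 ratios of 2.08 (1.98 to 2.17) and 1.88 (1.79 to 1.98). The 2D co-culture was 3.26-fold below the 2D monoculture, a log2 ratio of -1.70 (-1.90 to -1.51). The spheroid was 13.7-fold above the 2D co-culture (12.1 to 15.6), the other culture with fibroblasts. Camta1, within 1 kb of Tnfrsf9 on the opposite strand, had 1010, 1427, 4685 and 1848 reads. Its spheroid ratio was thus similar (2.28 on the log2 scale), and its co-culture and tumor counts followed another order. Park7, also within 1 kb on the opposite strand, had 27993, 31242, 30937 and 39329 reads. Any part of the reads of these genes in Tnfrsf9 was not tested.

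Tnfrsf18 and Tnfrsf4, the genes of GITR and OX40, differed less between libraries. Tnfrsf18 had 78, 99, 76 and 392 reads, with a log2 ratio of 2.14 (1.79 to 2.51) between tumor and 2D monoculture and 0.03 (-0.45 to 0.50) between spheroid and 2D monoculture. Tnfrsf4 had 73, 42, 65 and 166 reads, with 0.997 (0.591 to 1.41) and -0.10 (-0.61 to 0.40) for the same ratios. Sdf4, within 1 kb of Tnfrsf4 on the same strand, had 20740, 13266, 16518 and 23935 reads. Any part of its reads in Tnfrsf4 was not tested.

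Foxp3, Il2ra and Il2rb each had a different pattern. Foxp3, the transcription factor of regulatory T cells, had 17, 16, 11 and 35 reads, and the interval of its log2 ratio between tumor and 2D monoculture (0.85, -0.02 to 1.78) included 0. Exons of Foxp3 overlap those of Ccdc22 on the opposite strand over 590 bases and those of Ppp1r3f over 266 bases. Ccdc22 had 2730 to 3305 reads per library, and without strand the reads of such a pair cannot be told apart. Il2ra, the inducible alpha chain of the IL-2 receptor, had 1, 0, 0 and 94 reads, an 82.5-fold ratio with an interval of 14.4 to 3292.

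Il2rb, the beta chain shared by the receptors of IL-2 and IL-15, was read in every library. Its 72, 33, 532 and 337 reads corresponded to 0.505, 0.288, 3.91 and 2.08 CPM, so the spheroid was the highest library. The spheroid was 7.73-fold above the 2D monoculture (log2 ratio 2.95, 2.59 to 3.33) and 13.6-fold above the 2D co-culture (9.53 to 19.9). The tumor exceeded the 2D monoculture by a log2 ratio of 2.04 (1.67 to 2.43).

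Against the 2D monoculture, the 2D co-culture had 1 of the 35 genes over 2-fold lower, Tnfrsf9, and none higher, where 10.1% of all genes were lower and 6.29% higher. The median log2 ratio was 0, as many of the genes had no or few reads in both libraries. Below the 2-fold limit, Cd274, Havcr2 and Il2rb had intervals that lay wholly under 0, and Lck, Cd79a, Tnfrsf18 and Tigit had intervals wholly above it, Tigit with 5 reads against 0. For Il2rb the log2 ratio was -0.81 (-1.45 to -0.20), and for Tnfrsf18 it was 0.66 (0.22 to 1.11). The fibroblast markers were also higher in the 2D co-culture (655.4 against 8.66 CPM in the 2D monoculture), and their part in these ratios was not tested.

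The spheroid had 5 of the 35 genes over 2-fold higher than the 2D monoculture (Tnfrsf9, Il2rb, Lck, Lag3 and Cd79a) and 2 lower (Havcr2 and Cd28), where 12% of all genes were higher and 16.9% lower. The share of the listed genes that was higher was near that of all genes, and the median log2 ratio was 0 against 0.01. The comparison with the 2D monoculture shares that library with the comparison before it. The ratio between spheroid and 2D monoculture moved with the GC content of the exons, from a class median of -0.32 in the class of lowest GC content to 0.62 in that of the highest, in 10 classes of all genes. Relative to the median of its class, the log2 ratio was 2.40 for Il2rb, 2.25 for Tnfrsf9, 1.18 for Lck, 0.91 for Cd79a, 0.85 for Lag3, -0.82 for Cd28 and -3.18 for Havcr2. Cd79a, Lag3 and Cd28 were then within 2-fold. Marker sums of other cell types in the spheroid were 3.00 CPM for pan-leukocyte, 4.55 for endothelial, 12.4 for skeletal muscle and 13.9 for fibroblast genes. The dendritic sum was 15.4 CPM, with 15.2 from its highest marker, and the myeloid sum was 27.3 CPM, with 22.5 from its highest marker. Over 2-fold above the 2D monoculture were 4 of 5 skeletal muscle, 4 of 12 myeloid, 3 of 9 fibroblast, 2 of 5 pan-leukocyte, 1 of 6 dendritic and 0 of 6 endothelial markers, and their part in these ratios was not tested.

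**Figure D2:**
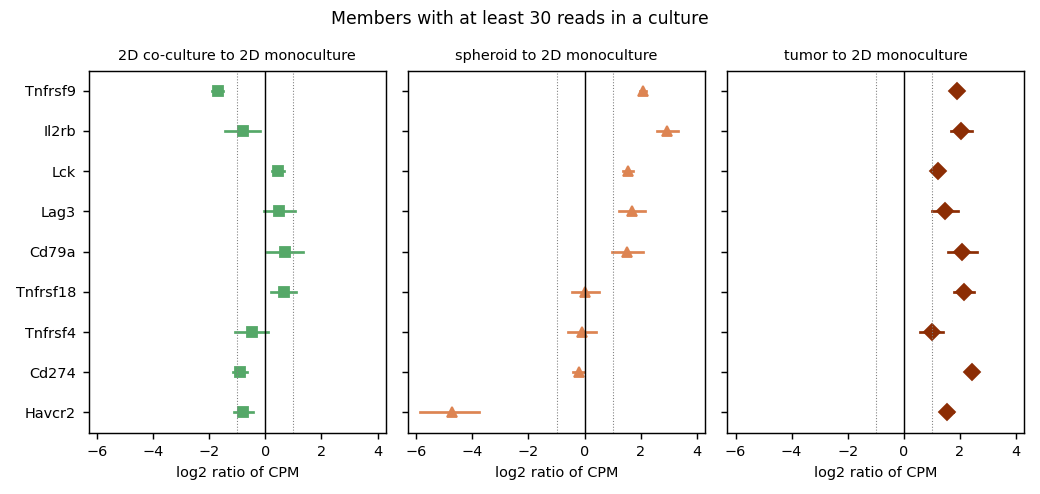
Log2 ratio of CPM to the 2D monoculture for the 9 genes with at least 30 reads in a culture, in the 2D co-culture, the spheroid and the tumor; bars are exact 95% counting intervals and dotted lines mark 2-fold. Tnfrsf9 and Il2rb lie below 0 in the 2D co-culture and above 2-fold in the spheroid, Havcr2 lies at -4.72 in the spheroid and at 1.54 in the tumor, and the tumor ratios of all 9 genes lie above 0.

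The spheroid and the tumor were compared directly, which is the comparison on which the study's search for shared levels rested. None of the 35 genes was over 2-fold higher in the spheroid (22.6% of all genes) and 28 were lower (32.7% of all genes), with a median log2 ratio of -2.74 against -0.21. With 1 CPM added in place of 0.1, the lower genes numbered 14 and the median was -0.74, and the share of all genes at that setting is not given here. As in the comparison of tumor and 2D monoculture, 21 of the 28 lower genes had under 10 reads over the 3 cultures, where 69.4% of all such genes were lower. Of the 14 genes with more culture reads 7 were lower (28.5% of all such genes). The 7 genes within 2-fold on this scale were Lck, Cd79a, Lag3, Tnfrsf4, Tnfrsf9, Foxp3 and Il2rb. Of these, Lag3 alone had an interval that held 0, with a log2 ratio of 0.22 (-0.10 to 0.54). For Tnfrsf9 the spheroid exceeded the tumor by 0.19 (0.13 to 0.25) and for Lck by 0.33 (0.20 to 0.46) on the log2 scale, and both signs turned when libraries were scaled by their total counts (to -0.17 and -0.027). Il2rb was higher in the spheroid by 0.91 (0.71 to 1.11). Cd79a was lower there, at -0.57 (-0.93 to -0.22). With nothing added to the levels, Tnfrsf4 and Foxp3 were past 2-fold lower in the spheroid, at -1.10 (-1.54 to -0.68) and -1.42 (-2.54 to -0.41).

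The ratio between spheroid and tumor also moved with the GC content of the exons, from a class median of -1.15 at the lowest GC content to 1.27 at the highest. Relative to the median of its class, Lag3 stood at -1.07, Cd79a at -1.08, Foxp3 at -1.37 and Tnfrsf4 at -1.53, so these 4 were then over 2-fold lower in the spheroid. Lck turned to -0.24, Il2rb stood at 0.31 and Tnfrsf9 at 0.82. Ncr1 (-0.36) and Ms4a1 (-0.13), which were lower before, were then within 2-fold. The near-equal level of Lag3 in the spheroid and the tumor was thus not kept when the GC trend was removed. For the tumor against the 2D monoculture, the class median ran from 0.56 at the lowest GC content to -0.55 at the highest. Relative to their class medians, Ncr1 (0.97) and Ms4a1 (0.72) were then within 2-fold there, and Tnfrsf4 (1.16) was over 2-fold higher.

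Among the genes lower in the spheroid than in the tumor, Cd274 and Tnfrsf18 were placed closely and Havcr2 showed a large difference on few spheroid reads. Havcr2, with 9 reads in the spheroid, was 76.6-fold lower, a log2 ratio of -6.26 (-7.39 to -5.33), and Cd274 was 6.21-fold lower, at -2.63 (-2.79 to -2.48). Tnfrsf18 had a log2 ratio of -2.11 (-2.49 to -1.76), and Cd4, with 24 and 283 reads, -3.31 (-3.97 to -2.70). Where the spheroid had no read, a bound took the place of a ratio, such as at least 117.7-fold lower for Klrk1, 107.4-fold for Gzmb and 48.1-fold for Pdcd1. Over the 26 genes that had fewer than 30 reads in each culture, the spheroid held 66 reads, the 2D co-culture 64 and the 2D monoculture 70, against 4108 in the tumor. Their level was 1.92% (1.48 to 2.44%) of that in the tumor in the spheroid and 1.94% (1.51 to 2.45%) in the 2D monoculture. For the 9 genes with at least 30 reads in a culture the same shares were 76.8% and 27.0%, and 17.1% in the 2D co-culture. Tnfrsf9 held 4350 of their 6660 spheroid reads, and without it the share in the spheroid was 47.5%. Single genes ranged there from 1.31% of the tumor level (Havcr2) and 16.1% (Cd274) to 188.2% (Il2rb). The groups of 26 and 9 genes were formed by their culture reads. The gap between their shares was thus largely set by that choice, and no conclusion was drawn from it.

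**Figure D3:**
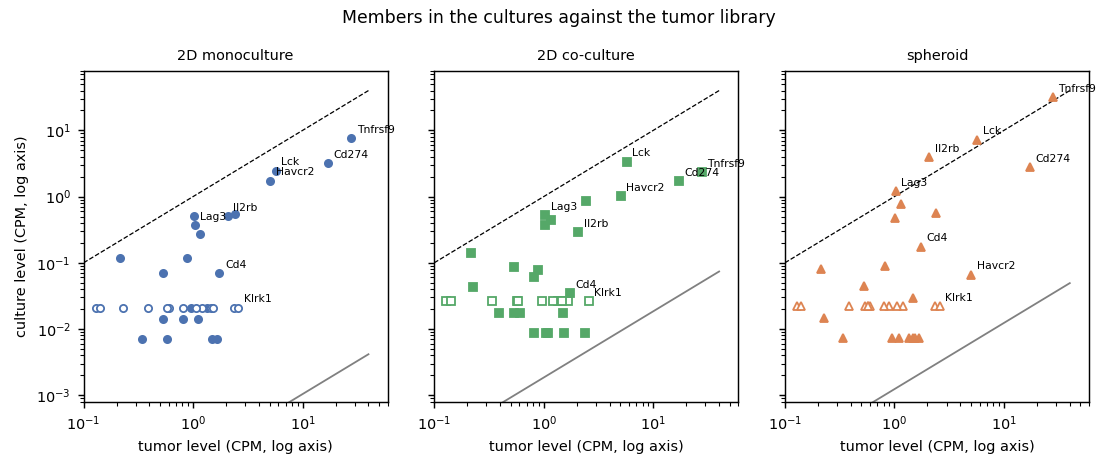
Level of each of the 35 genes in the 2D monoculture, 2D co-culture and spheroid against its level in the tumor (CPM, log axes). The dashed line marks equal levels, and open symbols mark a count of 0, drawn at 3 reads. The grey line marks the median share of the tumor level over 75 genes high in the tumor and nearly absent from the 2D monoculture. In the spheroid Tnfrsf9, Lck, Lag3 and Il2rb lie at or above the dashed line, and most other genes lie far below it.

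Levels of different genes were compared within the tumor per kilobase of exon, as a percent of the level of Ptprc per kilobase. Exon lengths were unions over the GENCODE M21 transcripts of each gene, from 914 bases (Nkg7) to 7183 bases (Klrk1), and long unions lower a gene's value. Tnfrsf9 stood at 380.0% (369.0 to 391.2%) and Cd274 at 176.1% (169.6 to 182.8%) of Ptprc, above every other gene of the list. Lck (72.3%), Havcr2 (68.8%), Nkg7 (62.1%), Gzmb (60.9%) and Tnfrsf18 (58.6%) followed, and the interval of each overlapped that of its neighbour in this order. At the low end stood Il2ra (3.75%), Ncr1 (3.11%), Cd3e (3.07%), Foxp3 (1.74%) and Ms4a1 (0.847%), of which Il2ra, Ncr1 and Cd3e did not differ beyond their intervals.

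Ratios between pairs of genes were taken within the tumor, and they compare RNA levels, not numbers of cells. Of the genes in these pairs, Cd79a and Cd274 were also well read in every culture. The level of Cd8a per kilobase was 0.858 of that of Cd4, with an interval of 0.716 to 1.03 that held 1. With the other CD8 chain the order was different, as Cd8b1 was 1.49 times Cd4 (1.22 to 1.82) and Cd8a 0.576 of Cd8b1 (0.467 to 0.712). Gzmb was 1.37 times Gzma (1.15 to 1.64), and Cd79b was 1.31 times Cd79a (1.07 to 1.59). Cd274 was 11.5 times Pdcd1lg2 (9.64 to 13.8). The CD3 chains, which assemble into a common complex, were unequal, as Cd3g was 6.15 times (4.59 to 8.37) and Cd3d 7.32 times (5.38 to 10.1) Cd3e.

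**Figure D4:**
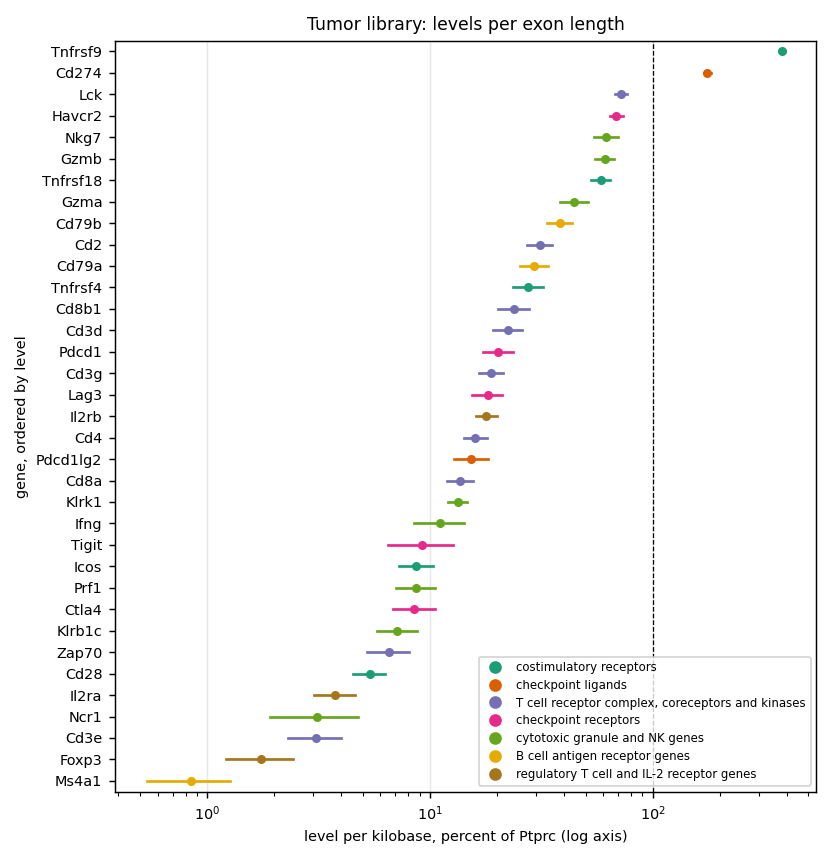
Tumor level per kilobase of exon as a percent of that of Ptprc (log axis) for the 35 genes in order of level, colored by role; bars are exact 95% counting intervals and the dashed line marks the level of Ptprc. Tnfrsf9 and Cd274 lie to the right of the line, and Foxp3 and Ms4a1 are the lowest.

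Other genes of the same lineages, listed by function, followed the tumor in most cases. In the tumor against the 2D monoculture, 17 of 20 other T cell genes were over 2-fold higher and 1 lower, 15 of 18 other cytotoxic and NK genes were higher and 1 lower, and 9 of 11 other B cell and plasma cell genes were higher and none lower, where 22.9% of all genes were higher and 15.9% lower. Of these genes, 10, 10 and 6 had under 10 reads over the 3 cultures and passed the filter only with their tumor reads. Among those with more culture reads 8 of 10, 5 of 8 and 3 of 5 were higher (17.6% of all such genes). Lcp2, the adaptor SLP-76, had 13.7 CPM in the tumor and at most 0.0220 in a culture, and Jchain, the joining chain of secreted antibodies, had 17.3 and at most 0.0699. Cd244 and Il18rap, receptors of NK cells, had 2.08 and 1.77 CPM in the tumor and at most 0.00734 and 0.0786 in a culture. The B cell inhibitory receptor Cd22 had 1.58 CPM there and no read in the cultures, whereas Mzb1, a chaperone of plasma cells, had 0.239, 0.122, 1.16 and 1.61 CPM over the 2D monoculture, 2D co-culture, spheroid and tumor. Prkcq, the kinase PKC theta, was the T cell gene that was lower, with 57.3, 103.4, 50.4 and 20.3 CPM over the 2D monoculture, 2D co-culture, spheroid and tumor. Ccl5, a chemokine of T cells and of stressed or infected cells, was the other, with 7.98, 1.45, 15.4 and 1.86 CPM. Tcf7, a transcription factor of T cell precursors and of Wnt signaling, stood at 5.69, 15.9, 37.5 and 7.29 CPM, so it was highest in the spheroid. In the spheroid against the 2D monoculture, Tcf7, Tbx21, Spib, Vpreb3 and Mzb1 were higher and Il7r was lower over 2-fold among these lists, and Tbx21, Spib, Vpreb3 and Il7r are named because their values were seen.

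Partners of the receptors were measured as well, and several were read in all cultures. In the tumor against the 2D monoculture, 11 of 18 partners were over 2-fold higher and 2 were lower, against 22.9% and 15.9% of all genes. Without the 5 partners that had under 10 reads over the 3 cultures, 6 of 13 were higher (17.6% of all genes with at least 10 such reads). The lower ones were Pvr and Nectin2, ligands of TIGIT, with 134.3, 96.7, 215.9 and 54.4 CPM and 75.7, 79.3, 273.4 and 23.6 CPM. Nectin2 was thus 3.61-fold higher in the spheroid than in the 2D monoculture and 3.20-fold lower in the tumor. Lgals9, a ligand of TIM-3, had 14.3, 40.3, 27.6 and 85.0 CPM. Tnfsf9, the ligand of 4-1BB, had 18.6, 22.6, 24.4 and 11.1 CPM, so that it was lowest in the tumor while its receptor gene Tnfrsf9 was higher there than in either 2D library.

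Genes of the interferon gamma axis were over 2-fold higher in the tumor than in the 2D monoculture for 8 of 11 and lower for none, where 22.9% of all genes were higher and 15.9% lower. Without the 1 gene that had under 10 reads over the 3 cultures, 7 of 10 were higher (17.6% of all genes with at least 10 such reads). Gbp2, an interferon-induced GTPase, had 5.005, 1.53, 0.602 and 112.2 CPM, a 22.4-fold higher level in the tumor than in the 2D monoculture. Jak1 (184.6, 45.8, 34.7 and 129.7 CPM) and Jak2 (24.1, 10.8, 9.36 and 46.5 CPM) are the kinases of the receptor, and both were lower in the spheroid and the 2D co-culture than in the 2D monoculture. Ifngr1 and Ifngr2, the receptor chains, had 15.9, 24.7, 27.9 and 51.4 CPM and 72.4, 86.1, 124.2 and 85.2 CPM. Cxcl10, a chemokine that draws T cells, had 29.6, 21.8, 76.9 and 86.9 CPM, so its spheroid level was near that of the tumor, while the related Cxcl9, named after its values were seen, had 2, 12 and 11 reads in the cultures and 10748 in the tumor. Cd274, a target gene of this axis, was highest in the tumor as most of the axis was, and the part of interferon gamma in its level was not tested.

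**Figure D5:**
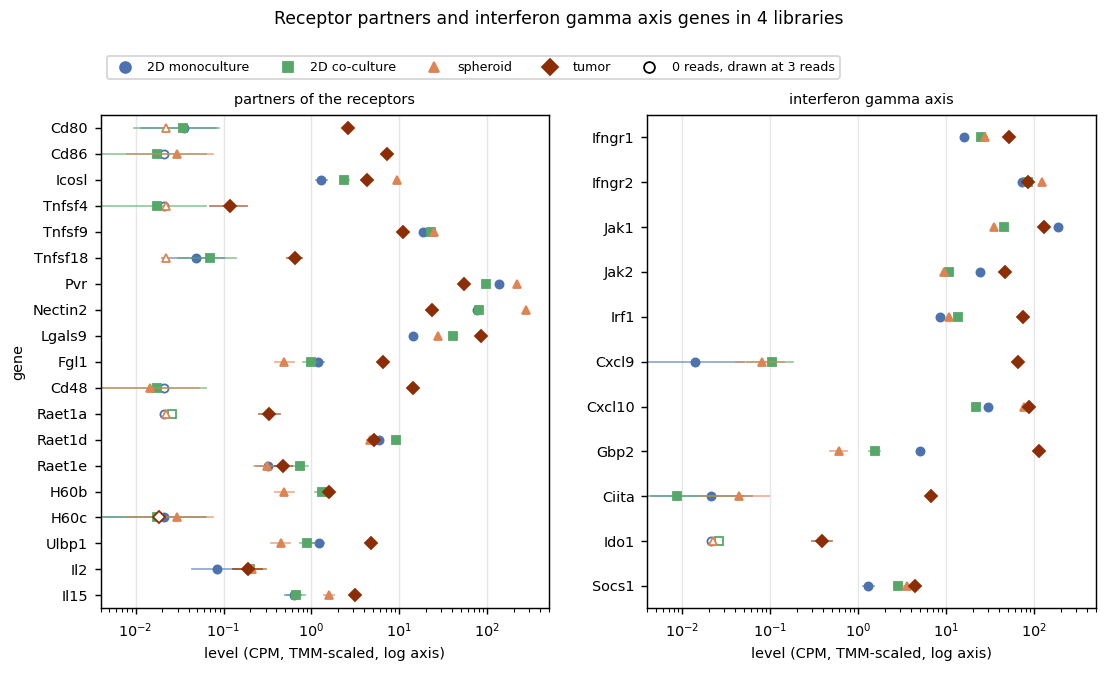
Level (CPM, TMM-scaled, log axis) of 19 partners of the receptors and 11 genes of the interferon gamma axis in the 4 libraries; bars are exact 95% counting intervals and open symbols mark a count of 0, drawn at 3 reads. Pvr, Nectin2 and Tnfsf9 are lowest in the tumor, and Irf1, Cxcl9, Gbp2 and Ciita are highest there.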

How the data were processed

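RNA of 4 samples was sequenced, 1 library per condition, from a kit that selects polyadenylated RNA and, as named in the labels, does not mark strand. The deposited file is a single table that holds, for each gene and library, the number of reads counted by the authors, not normalized. The submitters' processing notes name Trimmomatic, STAR, featureCounts and the build mm10, without versions; the strand setting of the counting is not given in the sources used here. Of the 24527 genes, 4633 had no read in any library. Library totals lay between 118896900 and 150028663 reads, so that 3 reads correspond to 0.0185 to 0.0262 CPM.

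Counts were scaled by TMM factors from all 4 libraries (0.984, 0.963, 0.908 and 1.16 for 2D monoculture, 2D co-culture, spheroid and tumor; edgeR 4.0.16, R 4.3.3). Intervals of levels are exact Clopper-Pearson and those of ratios exact binomial intervals at 95% (scipy 1.17.1), and they cover counting error only. A ratio against a count of 0 used 3 reads as a bound. Counts over 2-fold and medians used log2(CPM + 0.1) over 17503 genes with at least 10 reads in the 4 libraries. NOISeq and GFOLD of the study's methods simulate replicates or model counts and were not run. The ratio step was tested on simulated data. Positions, exon lengths and GC content are from GENCODE M21 (GRCm38, the same assembly as mm10), with GC content for 97.4% of the genes. The spheroid to 2D co-culture ratios were added after values were seen. All 35 genes are named; in each other list, the 3 genes highest in the tumor and those over 10 CPM in the 2D monoculture are. The 35 genes and the lists were chosen with earlier results of these data known. 1 gene of the interferon gamma axis is not reported here. H60a had no row, and Raet1b and Raet1c had no read. Alternatives were scaling by DESeq2 1.42.0 size factors, total counts or upper quartiles, 0.5 or 1 CPM added, other filters, a 4-fold limit, calls from the counting interval and removal of the GC trend.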

Additional observations from a re-analysis of the deposited data

How the results depend on the processing

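With 1 CPM added in place of 0.1, the genes higher in the tumor than in the 2D monoculture numbered 16 (33 with 0.1 CPM), with a median log2 ratio of 0.94, those lower in the spheroid than in the tumor 14 (28), with a median of -0.74, and those higher and lower in the spheroid than in the 2D monoculture 3 and 1. With 0.5 CPM the last counts were also 3 and 1, and the medians were 1.35 (tumor to 2D monoculture) and -1.16 (spheroid to tumor). A mean of at least 1 CPM left 6 of the 35 genes: all 6 were higher in the tumor than in the 2D monoculture (median 1.86), 3 were higher and 1 lower in the spheroid than in the 2D monoculture (0.76), 3 were lower in the spheroid than in the tumor (-0.87), and the median of the 2D co-culture to the 2D monoculture was -0.68. A 4-fold limit left 0 genes lower in the 2D co-culture, and 2 higher and 1 lower in the spheroid, than in the 2D monoculture.

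The following alternatives were chosen after the data were seen. Removing the GC trend left 3 genes higher and 1 lower in the spheroid than in the 2D monoculture and moved the spheroid to tumor median to -2.07. A filter of at least 10 reads in the 2D monoculture left 13 genes. Of these, 11 were higher in the tumor than in the 2D monoculture (median 1.85), where 13.6% of all such genes were. In the spheroid 6 were lower than in the tumor (-0.96). For the other counts in this section, shares of all genes at the same setting are not given here. Those counts thus show only how calls moved. The cause of these moves was not tested.

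Scaling by total counts moved the median of all genes by 0.20 (tumor to 2D monoculture) and -0.28 (spheroid to tumor), and turned the sign of the spheroid to tumor log2 ratio of Tnfrsf9 (-0.17) and Lck (-0.027). Upper quartile scaling moved the same medians by 0.21 and -0.11. Every other count stayed within 1.5 times its value under the 3 other scalings, and the other ratios of these genes that changed sign (Lag3 between spheroid and tumor, and Cd3e, Cd3g, Tnfrsf4 and Tnfrsf18 between spheroid and 2D monoculture) had intervals that held 0. No paired analysis was possible because the 4 libraries are of 4 different conditions, and for the same reason no library could be left out of a group. Depth limits the culture values of the T cell and NK genes to bounds of 3 reads.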
